A study of Homo sapiens with 8 samples.

Results

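Panc10.05 is an established human pancreatic cancer cell line. A derivative of it, Panc10.05R, had acquired resistance to indisulam through culture in rising concentrations of the drug. Here, the genes whose level in the resistant line was well above that in the parental line were studied. They were chosen by measured values: the lowest of the 4 resistant libraries had to be at least 4 times the highest of the 4 parental libraries and at least 1 CPM (counts per 1000000 reads assigned to genes). The choice was made among autosomal protein-coding genes of GENCODE release 44, without SERPINB2, SRPX2 and genes whose symbols begin with OAS, IFI, MX, PARP or SAMD9. It found 154 members among the 18959 genes to which the rule applied and the 60675 genes listed. Because the lines were compared to choose the members, every difference between the lines given for a member is a description and carries no test.

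The 8 libraries came from each line with and without indisulam, 2 per group. In the parental line the drug was given at 2 μM for 18 h. Resistant indisulam cells were kept on 2 μM of the drug without a break, whereas resistant untreated cells had been withdrawn from it for a drug holiday, so the drug contrasts of the lines differ in exposure. Titles of the samples name Panc10.05 and were followed, although the growth and treatment notes name A549, a lung line. The resistant derivative was a single line, and whether it was a clone was not given in the sources used here. Per the study's description the libraries of a group are technical replicates, so p-values measure only the spread between these libraries.

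Indisulam acts as a molecular glue that brings DCAF15, a receptor of a cullin ubiquitin ligase, to the splicing factor RBM39, whose protein is then destroyed. Cancer cells that adapt to a drug often carry a changed transcriptional state beside changes in the drug target. In pancreatic carcinoma cells, genes for matrix glycoproteins such as thrombospondin and tenascin, and for ligands of the TGF-beta family, are known parts of a mesenchymal state. Interferon-stimulated genes are switched on together through STAT and IRF factors, which bind the interferon-stimulated response element in their promoters.

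Each library held between 65266253 and 108002436 gene reads, and same-group libraries had r of 0.9964 to 0.998 across genes. A single read corresponded to 0.00926 to 0.0153 CPM, and counting error is the only error that this depth limits. RBM39 RNA stood at 336 and 340.4 CPM in parental untreated, 696 and 704 CPM in parental indisulam, 296 and 309 CPM in resistant untreated and 592 and 609 CPM in resistant indisulam libraries. The 8 markers of pancreatic ductal or carcinoma epithelium were all expressed, with a summed level of 6308 to 6614 CPM in parental and 10918 to 12691 CPM in resistant libraries. Lung alveolar markers summed to at most 0.203 CPM (4 of 6 at 0 reads everywhere, NKX2-1 among them). Leukocyte markers summed to 0.241 to 0.456 CPM (PTPRC and CD3E at 0), endothelial markers to 0.199 to 0.439 CPM, acinar markers to at most 0.046 CPM, and the 4 endocrine markers were at 0. Fibroblast markers summed to 1.34 to 1.92 CPM in parental and resistant untreated libraries and to 4.10 and 4.18 CPM in resistant indisulam libraries. Nearly all of this sum was COL1A1, at 4.06 and 4.005 CPM in resistant indisulam replicates 1 and 2. In the parental and resistant untreated libraries COL1A1 stood at 1.33 to 1.84 CPM. Each other fibroblast marker was at most 0.0608 CPM in every library, with DCN and LUM at 0 in all. The part of fibroblast-type RNA in the values below was not tested.

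Members were lower in parental cells rather than absent, and the rule set no upper limit on the parental level. In 43 members a parental library was at 1 CPM or more. In 111 of the 154 every parental library was under 1 CPM, in 14 every parental library was under 0.1 CPM, and no member had 0 reads in all 4 parental libraries. Only TNFRSF1B, OBSL1, SIRPA, BMP4 and ZNF350 had a parental library with 0 reads (SIRPA is named for this count, after its values were seen). The highest parental library of a member had a median of 0.487 CPM, and the lowest resistant library a median of 4.06 CPM. In 42 members every resistant library was at or over 10 CPM, and in THBS1, TGFBI and ADAMTS12 every one was over 100 CPM. The ratio of the lowest resistant to the highest parental library had a median of 8.92 and an interquartile range of 5.59 to 14.9; 64 members had a ratio of 10 or more and 25 a ratio under 5. As a share of all gene reads, members made up 0.0307 to 0.0324% of parental libraries, 0.422 and 0.43% of resistant untreated libraries, and 0.332 and 0.331% of resistant indisulam libraries.

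**Figure D1:**
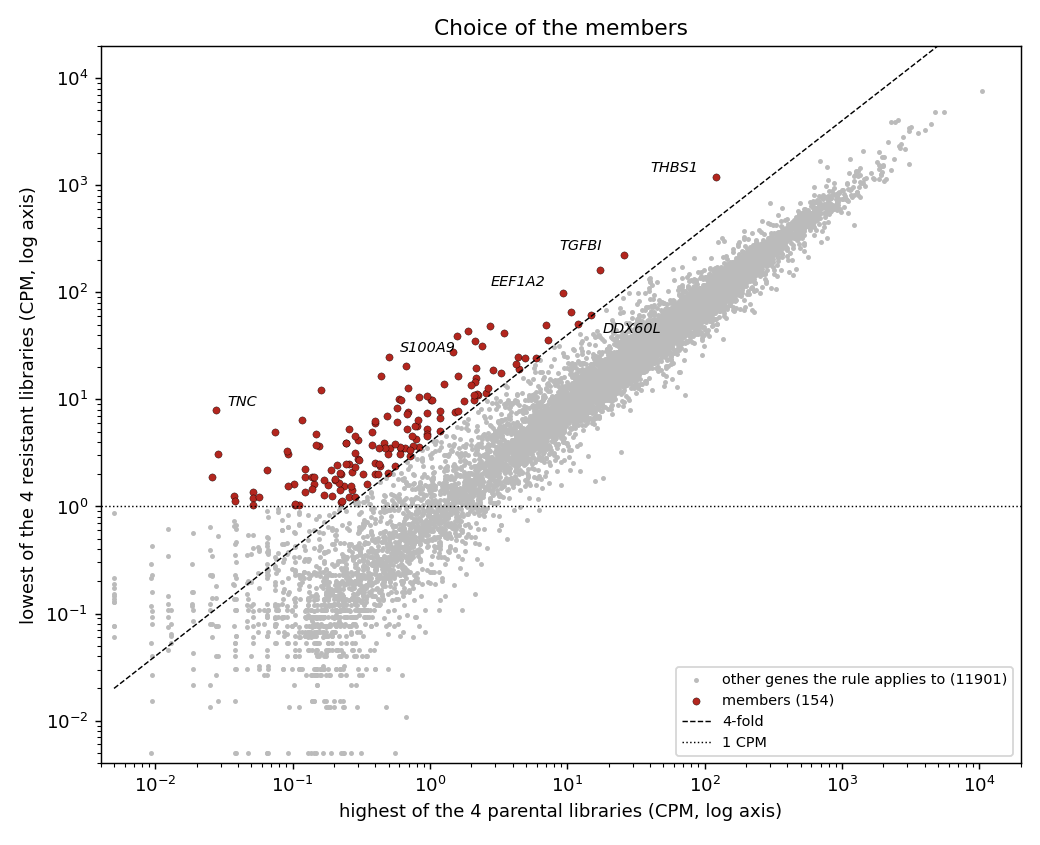
Highest parental library against lowest resistant library, both in CPM on log axes, for the 12055 tested genes to which the rule applies; red points are the 154 members, the dashed line marks 4-fold, the dotted line 1 CPM, and libraries with 0 reads are drawn at the lower edge. In 111 members every parental library is under 1 CPM, and of the members THBS1 lies furthest to the upper right.

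Members were 1.28% of the 12055 tested genes to which the rule applied. The same rule with the lines exchanged found GPR35, PPP1R14C, KANK1 and ZNF626, which is 0.0332% (named for this count, after their values were seen). Just inside the 4-fold threshold were DDX60L with a ratio of 4.13, ZNF358 with 4.13 and FKBP10 with 4.14. Just outside it were SYNM with 3.91, APOBEC3F with 3.90 and PLAT with 3.88. Just inside the threshold of 1 CPM were C1S with a lowest resistant library of 1.03 CPM, CTHRC1 with 1.03 CPM and ZNF350 with 1.04 CPM. Just outside it were SLC15A3 with 0.996 CPM, SIM2 with 0.951 CPM and PPM1M with 0.919 CPM. Values on either side of both thresholds lay close together. All 154 members passed the filter on low counts of the fit, which they had to do through the resistant libraries.

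Promoter stretches of 6 members are shown: those of the members with the interferon element before the start, and those of THBS1 and ADAMTS12, 2 of the most abundant members, for a TEAD or AP-1 site (both chosen after their values were seen). RefSeq promoters (GRCh38.p14, 250 bases before to 50 bases after the gene start) were matched by symbol for 105 of the 154 members, which is under 80%, so a comparison of motifs or GC content between the set and other genes would be void and none is given. Capitals mark the motif, which may lie on either strand, and no motif overlapped another. The core of the interferon-stimulated response element was searched as a pair of GAAA words with 2 bases between them and occurred in 3.65% of all 27305 promoters of the table. The AP-1 site was searched as TGANTCA (7.76% of promoters) and the TEAD site as GGAATG (14%). Also searched were the cAMP response element TGACGTCA (1.98%), the E-box CACGTG (7.43%), the core of the antioxidant response element TGACNNNGC (13.6%) and the TATA box TATAAA (12%), which are not shown. Of the leading members, OBSL1, KCNN4 and ADAMTS12 held the antioxidant element, KCNN4 the E-box, S100A9 the TATA box and GPR161 a TEAD site.
EPSTI1: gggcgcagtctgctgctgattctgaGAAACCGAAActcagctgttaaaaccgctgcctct
GBP1: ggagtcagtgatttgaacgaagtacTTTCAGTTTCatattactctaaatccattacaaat
DDX60L: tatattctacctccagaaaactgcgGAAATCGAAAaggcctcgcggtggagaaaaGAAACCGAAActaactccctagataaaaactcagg
TNFRSF1B: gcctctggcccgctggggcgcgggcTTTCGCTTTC
THBS1: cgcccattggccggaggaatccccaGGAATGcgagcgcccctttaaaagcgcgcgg
ADAMTS12: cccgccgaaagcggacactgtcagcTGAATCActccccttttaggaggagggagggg

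The EPSTI1 stretch lies at chr13:42992257-42992316 on the minus strand, that of GBP1 at chr1:89065301-89065360 on the minus strand, and that of DDX60L, with 2 matches, at chr4:168480508-168480597 on the minus strand. The TNFRSF1B stretch lies at chr1:12166956-12166990 on the plus strand and ends at the base before the start. The THBS1 stretch lies at chr15:39581008-39581063 on the plus strand and holds a TEAD match, and that of ADAMTS12 at chr5:33892043-33892099 on the minus strand and holds an AP-1 match; a TEAD match of ADAMTS12 lies further before the start and is not shown. Of the 11 members on the interferon list, 6 had a promoter in the table, and the element was found in 4 of these (EPSTI1, GBP1, DDX60L and GBP4, in GBP4 after the start). TNFRSF1B is not on that list. A match is a description of letters in the window and not a measured binding site.

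The widest gap between the lines belonged to TNC, which encodes the matrix glycoprotein tenascin C. TNC stood at 0.0278 and 0.0189 CPM in parental untreated, 0.0259 and 0.0249 CPM in parental indisulam, 7.95 and 8.35 CPM in resistant untreated and 9.14 and 9.29 CPM in resistant indisulam libraries. With 9 reads in the 4 parental libraries together, the pooled level was 359.7 times higher in resistant libraries (95% counting interval 189 to 788). Pooled ratios join libraries on and off the drug. Their intervals leave out the choice of members from these same reads and are no test of the lines. TNFRSF1B, a receptor of tumour necrosis factor, had 8 parental reads in all and stood at 3.64 and 3.66 CPM in resistant untreated and 3.07 and 3.30 CPM in resistant indisulam libraries, a pooled ratio of 158 (80.1 to 368). Both genes were therefore at the limit of detection in every parental library and well measured in every resistant library.

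EPSTI1, an interferon-induced gene, had 7 parental reads and the pooled ratio of 386 (187 to 960.0) was the highest of the 12 members with the widest gap. Its resistant libraries did not form a single level: EPSTI1 stood at 13.1 and 13.4 CPM off the drug and at 1.87 and 2.11 CPM on it. MARCKSL1, a membrane-associated substrate of protein kinase C, stood at 0.102 to 0.162 CPM in parental libraries, at 12.3 and 12.2 CPM in resistant untreated and at 18.9 and 19.5 CPM in resistant indisulam libraries. ACKR2, a decoy receptor that scavenges chemokines, stood at 0.0473 to 0.0741 CPM in parental libraries, at 5.07 and 4.93 CPM in resistant untreated and at 14.9 and 14.7 CPM in resistant indisulam libraries. SRGN, the core protein of the secretory-granule proteoglycan serglycin, stood at 0.0568 to 0.117 CPM in parental libraries, at 6.47 and 6.94 CPM in resistant untreated and at 13.3 and 14.6 CPM in resistant indisulam libraries.

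S100A9, a calcium-binding alarmin, stood at 0.376 to 0.502 CPM in parental libraries and at 24.9, 25, 28.1 and 28.8 CPM in the resistant ones. ERVMER34-1, the envelope gene of an endogenous retrovirus, reached 16.5 to 17.9 CPM in resistant libraries from 0.269 to 0.441 CPM in parental ones. ERVMER34-1 shares its locus with the more abundant DANCR on the opposite strand, so its value is uncertain. MMP9, gelatinase B, reached 4.71 and 4.96 CPM off the drug and 3.53 and 3.28 CPM on it, from 17 parental reads in all. OBSL1, a cytoskeletal adaptor of the obscurin family, had 4 parental reads in all and 1.26 to 1.56 CPM in resistant libraries, with a pooled ratio of 137 (53.2 to 506). SLC1A3, a glutamate and aspartate transporter, reached 2.18 to 2.87 CPM, and GPR161, a ciliary receptor, 3.11 to 6.24 CPM in resistant libraries. All 12 were separated from the parental libraries by at least 33.5 times in every pairing of libraries.

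**Figure D2:**
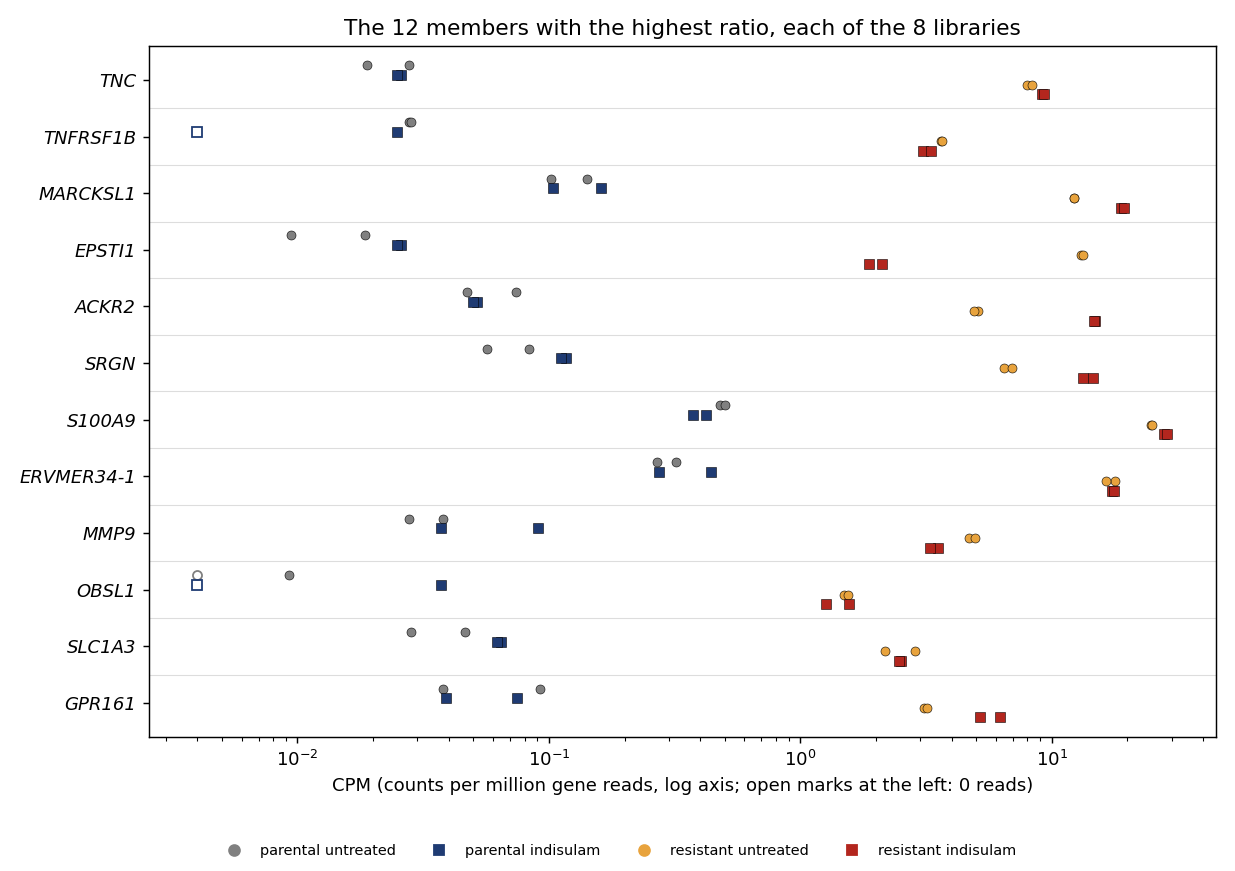
CPM on a log axis of the 12 members with the highest ratio of lowest resistant to highest parental library; each mark is 1 library, circles are untreated and squares indisulam-treated, grey and blue parental, orange and red resistant. Parental marks reach at most 0.502 CPM and resistant marks at least 1.26 CPM, and in EPSTI1 the resistant indisulam libraries lie well under the resistant untreated ones.

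Per kilobase of exon, the most abundant members in resistant untreated cells were THBS1 at 195 CPM per kb, TGFBI at 57.3, S100A9 at 43.6, ADAMTS12 at 22.3 and C15orf48 at 22.1. They were followed by EEF1A2 at 20.7, PMEPA1 at 15.9, KCNN4 at 15.8, DDX60L at 10.3 and WFDC2 at 10.0 CPM per kb. THBS1 also had the highest level of the 154 in parental untreated cells, 11.9 CPM per kb, and 43 members had a parental library at 1 CPM or more. Without THBS1 the summed level of the members was 187 to 216 CPM in parental libraries, 2466 and 2473 CPM in resistant untreated and 2127 and 2123 CPM in resistant indisulam libraries.

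The 2 most abundant members encode matrix proteins. THBS1 encodes thrombospondin 1, a matrix glycoprotein that activates latent TGF-beta, and stood at 107 and 111 CPM in parental untreated, 121 and 120.1 CPM in parental indisulam, 1757 and 1823 CPM in resistant untreated and 1197 and 1182 CPM in resistant indisulam libraries. TGFBI, a matrix protein induced by TGF-beta, stood at 24.8 to 26.1 CPM in parental libraries, at 446 and 439 CPM in resistant untreated and at 224 and 221 CPM in resistant indisulam libraries. That the lines did not overlap was fixed by the rule. The resistant line held its highest level of both genes off the drug. SPOCK1, a testican proteoglycan, reached 3.91 to 5.36 CPM in resistant libraries from 0.143 to 0.246 CPM. COL16A1, a fibril-associated collagen, reached 1.43 to 2.11 CPM from 0.124 to 0.269 CPM. LOXL2, which cross-links collagen, reached 1.78 to 3.85 CPM from 0.137 to 0.204 CPM and shares its locus with ENTPD4 on the same strand, which took 95.6% of the reads of the pair in resistant libraries, so its value is uncertain.

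Proteases and their inhibitors included ADAMTS12, a metalloprotease that cleaves matrix, which stood at 16.6 to 17.4 CPM in parental libraries, at 216 and 213 CPM in resistant untreated and at 161 and 162 CPM in resistant indisulam libraries. WFDC2 (HE4), a secreted protein with protease-inhibitor folds, stood at 0.497 to 0.829 CPM in parental libraries and at 13.7, 13.1, 11.3 and 10.6 CPM in the resistant ones. PRSS3, mesotrypsin, reached 2.10 to 2.14 CPM in all 4 resistant libraries from 0.117 to 0.269 CPM, and its reads may be shared with other trypsinogen genes of near-identical sequence. SERPINA5, the protein C inhibitor, had a ratio of 5.90 (named to complete the list, after its values were seen). MMP9 completes the 5 members on this list, of 90 tested (5.56%, beside 1.28% of all tested genes of the rule).

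Growth factors and receptor kinases held 4 members of 99 tested (4.04%, beside 1.28% of all tested genes of the rule). These were INHBA, BMP4, NOG and TGFB2. INHBA, the subunit of activin A, stood at 1.44 and 1.48 CPM in parental untreated, 2.11 and 1.96 CPM in parental indisulam, 47.8 and 50.8 CPM in resistant untreated and 34.8 and 35.1 CPM in resistant indisulam libraries. BMP4, a bone morphogenetic protein, had 9 parental reads in all and reached 1.37 to 2.55 CPM in resistant libraries, a pooled ratio of 81.6 (42.7 to 179). NOG, noggin, which binds and blocks BMP4, stood at 0.454 to 0.572 CPM in parental libraries, at 8.23 and 8.84 CPM in resistant untreated and at no less than 9.75 CPM in resistant indisulam libraries. TGFB2, a TGF-beta ligand, reached 3.09 to 4.24 CPM from 0.464 to 0.609 CPM. PMEPA1, a feedback inhibitor of TGF-beta signalling that is on no list, stood at 2.22 to 2.76 CPM in parental libraries, at 90.9 and 91.5 CPM in resistant untreated and at 48.3 and 48.1 CPM in resistant indisulam libraries.

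Cytokines and their receptors held 4 members of 75 tested (5.33%, beside 1.28% of all tested genes of the rule). Beside TNFRSF1B these were TNFSF12 (TWEAK), which reached 1.20 to 1.73 CPM from 12 parental reads in all, EBI3, a subunit of the cytokines IL-27 and IL-35, which reached 2.50 to 4.30 CPM from 0.0994 to 0.259 CPM, and the chemokine CCL5. CCL5 stood at 0.0778 to 0.204 CPM in parental libraries, at 2.96 and 2.68 CPM in resistant untreated and at 2.04 and 1.82 CPM in resistant indisulam libraries. C3, the central complement component, reached 11.5 and 11.1 CPM off the drug and 8.28 and 7.77 CPM on it, from 1.01 to 1.19 CPM, but shares its locus with GPR108 on the same strand (73.7% of the reads of the pair in resistant libraries), so its value is uncertain.

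The interferon list held 11 members even though OAS, IFI, MX, PARP and SAMD9 genes had been left out: EPSTI1, LAMP3, GBP4, XAF1, APOBEC3G, CCL5, GBP1, APOL1, BATF2, USP18 and DDX60L (APOBEC3G, GBP1, APOL1 and BATF2 were named to complete the list, after their values were seen). Members were 14.1% of the 78 tested genes of the list, beside 1.28% of all tested genes of the rule. The rule applied to 54 of the 80 annotated genes of the list, since symbols left out could not be members. XAF1, which promotes apoptosis by binding XIAP, stood at 0.139 and 0.114 CPM in parental untreated, 0.0648 and 0.0621 CPM in parental indisulam, 18.6 and 19.2 CPM in resistant untreated and 1.44 and 1.47 CPM in resistant indisulam libraries. USP18, which removes ISG15 from proteins and dampens interferon signalling, stood at 0.957 to 1.17 CPM in parental libraries, at 26.9 and 27.6 CPM in resistant untreated and at 5.06 and 5.26 CPM in resistant indisulam libraries. LAMP3, a lysosomal membrane protein, stood at 0.112 to 0.156 CPM in parental libraries, at 13.0 and 13.6 CPM in resistant untreated and at 3.63 and 3.76 CPM in resistant indisulam libraries. In all of these, the resistant line on the drug lay under the resistant line off the drug. Its place above the parental libraries was fixed by the rule. DDX60L, a helicase with antiviral activity and the most abundant of the 11 per kilobase, stood at 15.0 and 14.9 CPM in parental untreated, 9.76 and 9.33 CPM in parental indisulam, 123 and 128 CPM in resistant untreated and 61.9 and 63.0 CPM in resistant indisulam libraries. GBP1, GBP4 and APOBEC3G have close paralogues, so that upstream assignment of shared reads could have moved their values.

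**Figure D3:**
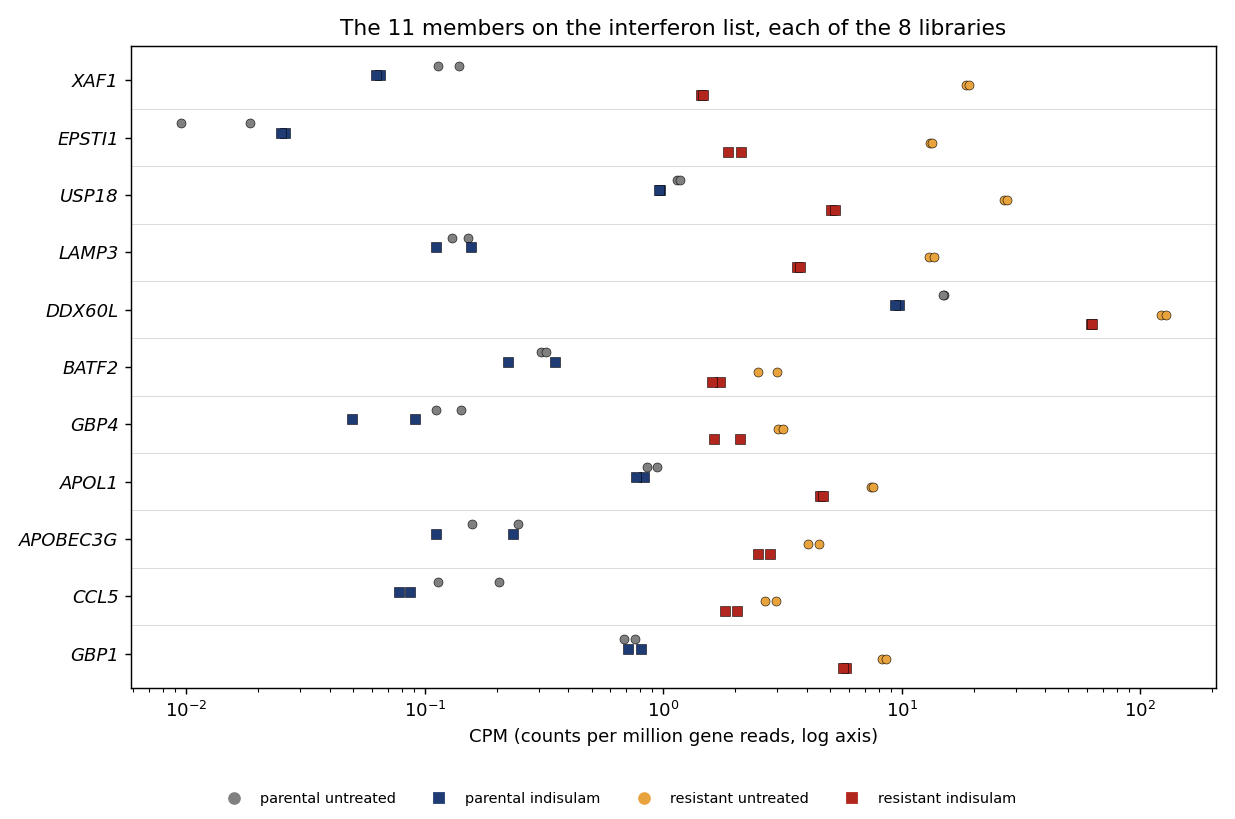
CPM on a log axis of the 11 members on the interferon list, ordered by their drug response in resistant cells, 1 mark per library with colours and shapes as for the 12 leading members. In every gene both resistant indisulam libraries (red squares) lie under both resistant untreated libraries (orange circles), by most in XAF1 and by least in GBP1.

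Ion channels and transporters held 11 members of 368 tested genes (2.99%, beside 1.28% of all tested genes of the rule). KCNN4, a calcium-activated potassium channel, stood at 0.857 to 1.57 CPM in parental libraries, at 47.8 and 50.9 CPM in resistant untreated and at 40.4 and 39.1 CPM in resistant indisulam libraries. CLIC5, a chloride intracellular channel protein, reached 2.22 to 3.09 CPM from 27 parental reads in all. KCNK6, a tandem-pore potassium channel, reached 7.34 to 8.70 CPM from 0.36 to 0.676 CPM, and LRRC8E, a subunit of volume-regulated anion channels, 4.80 to 6.35 CPM from 0.674 to 0.954 CPM. The 6 further members of this list had ratios of 4.91 to 10.6 and lowest resistant levels of 2.40 to 11 CPM.

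Adhesion and axon guidance genes held 6 members of 134 tested (4.48%, beside 1.28% of all tested genes of the rule). SEMA6B, a transmembrane semaphorin, reached 1.23 to 1.70 CPM from 16 parental reads in all, and SEMA4A, of the same family, 5.34 to 6.42 CPM from 0.509 to 0.681 CPM. NLGN2, a neuroligin of inhibitory synapses, reached 3.12 and 3.63 CPM off the drug and 5.78 and 6.09 CPM on it, from 0.233 to 0.491 CPM. ITGB6, the integrin beta subunit that with alpha-v activates latent TGF-beta, reached 4.55 to 5.33 CPM from 0.410 to 0.738 CPM. The remaining members of this list were near the 4-fold threshold, with ratios of 4.22 and 4.69. Among 90 tested G protein-coupled receptors the 3 members (3.33%) were ACKR2, GPR161 and the nucleotide receptor P2RY6. P2RY6 reached 1.44 to 2.86 CPM from 0.189 to 0.222 CPM.

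Of 197 tested developmental transcription factors 2 were members (1.02%, beside 1.28% of all tested genes of the rule). NPAS2, a partner of BMAL1 in the circadian clock, stood at 0.398 and 0.284 CPM in parental untreated, 0.583 and 0.671 CPM in parental indisulam, 23 and 23.3 CPM in resistant untreated and 20.3 and 21.1 CPM in resistant indisulam libraries. POU2F2 (OCT2), better known from B cells, reached 2.02 to 2.45 CPM from 0.249 to 0.417 CPM. C2H2 zinc finger genes held 5 members of 486 tested (1.03%, near the 1.28% of all tested genes of the rule). These were ZNF350 with a pooled ratio of 51.0 (26.6 to 112), and ZNF697, ZNF469, ZNF362 and ZNF358 with ratios of 7.35, 4.91, 4.48 and 4.13. None of the 3 tested classical pancreatic cancer markers and none of the 63 tested drug-metabolizing enzymes was a member. Of the 18 tested basal-like markers, KRT17 was the single member: this keratin of basal epithelial cells stood at 0.323 to 0.426 CPM in parental libraries, at 2.52 and 2.71 CPM in resistant untreated and at 14.1 and 14.3 CPM in resistant indisulam libraries. KRT17 has near-identical pseudogenes, so its value depends on how shared reads were assigned upstream.

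Of the abundant members on no list, EEF1A2, the tissue-restricted form of elongation factor 1A, stood at 7.34 to 9.34 CPM in parental libraries, at 98.0 and 102 CPM in resistant untreated and at 137 and 130.4 CPM in resistant indisulam libraries. C15orf48, a mitochondrial cytochrome oxidase-associated protein, stood at 4.18 to 4.42 CPM in parental libraries and at 30.5, 29.5, 19.1 and 20.9 CPM in the resistant ones. CD24, a glycosylated surface protein, stood at 0.676 to 0.783 CPM in parental libraries, at 5.61 and 5.70 CPM in resistant untreated and at 16.8 and 17.3 CPM in resistant indisulam libraries. In all, 57 members were on at least 1 of the 14 lists and 97 on none.

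Next, the response of the members to indisulam within each line was studied, a contrast that the rule did not use. The rule treats treated and untreated libraries alike, but it limits how far a member can fall in resistant cells. Tests were made with the quasi-likelihood test of edgeR fitted over 16661 genes, with adjusted p under 0.05 as the call. In resistant cells, 54 of the 154 members rose with the drug, 55 fell and 45 were not called. Over all genes tested, 24.9% were called higher and 25.8% lower in that contrast, against 35.1% and 35.7% of the members. Among the 12055 tested genes to which the rule applied, the shares were 27.9% and 31.2%. The median log2 fold change of the members was 0.01, beside 0.01 over all genes. Past 1 log2 unit, 6 members (3.90%) rose and 12 (7.79%) fell, against 3.74% and 1.46% of all genes. Of the tested genes to which the rule applied, 3.07% rose and 1.15% fell past that limit.

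The rises in resistant cells were led by KRT17, which changed by 2.40 ± 0.08 log2 units (SE; adjusted p = 3.48e-17), and CD24, with 1.54 ± 0.07 (adjusted p = 3.54e-15). ACKR2 followed with 1.52 ± 0.07 (adjusted p = 2.19e-14), and CCBE1, a secreted factor of lymphatic growth, with 1.10 ± 0.14 (adjusted p = 3.59e-07). CCBE1 reached 1.63 and 1.56 CPM off the drug and 3.54 and 3.57 CPM on it. SRGN, LOXL2, P2RY6, GPR161, NLGN2, MARCKSL1 and INAVA also rose, by 0.60 to 1.02 log2 units. All 3 members on the list of G protein-coupled receptors, ACKR2, P2RY6 and GPR161, were thus among the members that rose.

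The falls were led by interferon-list genes: XAF1 with a log2 fold change of -3.74 ± 0.08 (adjusted p = 1.38e-20), EPSTI1 with -2.77 ± 0.09 (adjusted p = 1.52e-17), USP18 with -2.45 ± 0.06 (adjusted p = 3.72e-20) and LAMP3 with -1.89 ± 0.08 (adjusted p = 2.00e-15). All 11 members on the interferon list fell in resistant cells, with a median of -0.77, beside the 25.8% of all genes called lower. Of the 143 other members, 54 rose, 44 fell and 45 were not called, with a median of 0.06. Outside the interferon list, C1S, a complement protease, fell by 1.44 ± 0.14 log2 units, although it shares its locus with the more abundant LPCAT3, and the matrix protein CTHRC1 by 1.22 ± 0.15. Of the 4 members on the matrix list 2 were called higher (SPOCK1 and COL16A1, calls that were lost without some library), THBS1 fell by 0.64 ± 0.03 log2 units and TNC was not called. Of the 6 members on the epithelial-mesenchymal transition list 2 were called higher (LOXL2, and TGFB2 with a call lost without some library), TGFBI fell by 1.04 ± 0.03, INHBA by 0.54 ± 0.04 log2 units and THBS1 as given, and TNC was not called. Of the 5 proteases and inhibitors 4 fell, ADAMTS12 by 0.46 ± 0.03 log2 units, and none rose. PMEPA1 fell by 0.97 ± 0.03 log2 units. Members of the matrix and epithelial-mesenchymal transition lists were thus called in either direction. The protease and interferon lists held no member called higher. The rise of LOXL2 carries the limit of the locus it shares with ENTPD4.

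**Figure D4:**
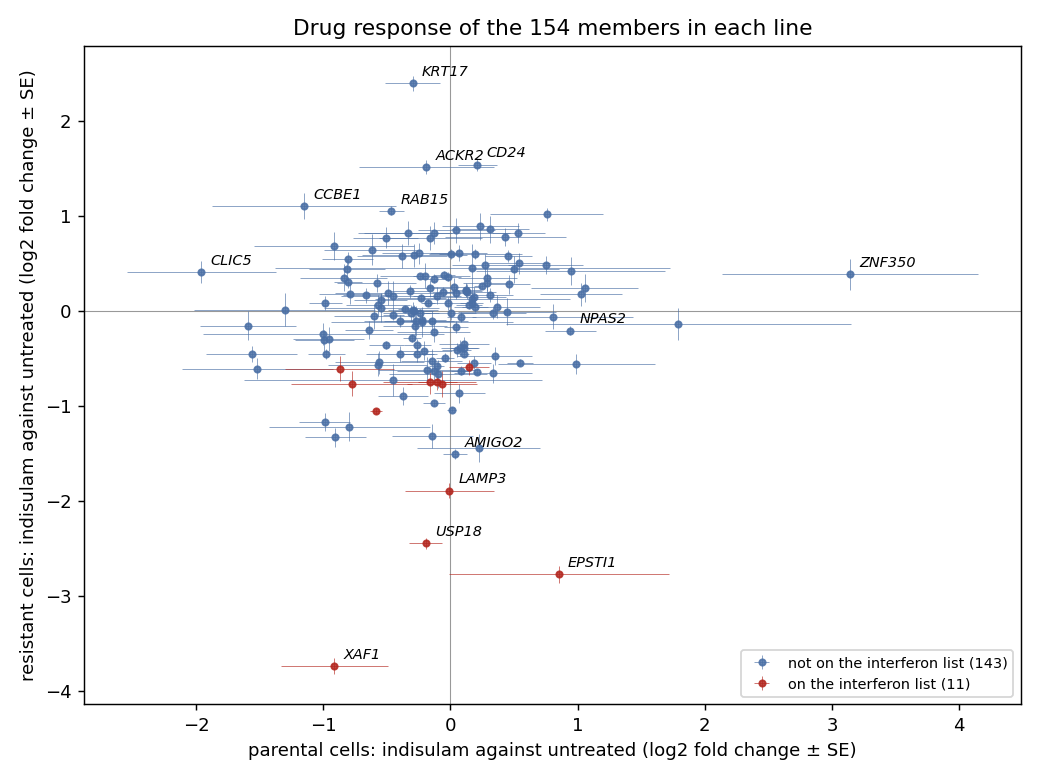
Log2 fold change with indisulam in parental cells (horizontal) and in resistant cells (vertical) for each of the 154 members, with standard errors; red points are the 11 members on the interferon list. All red points lie under 0 on the vertical axis, XAF1 lowest, while KRT17 is highest, and errors are wider on the horizontal axis.

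In parental cells, 11 members rose with the drug, 29 fell and 114 were not called. Over all genes, 31.6% were called higher and 26.6% lower, and among the tested genes to which the rule applied 39.2% and 25.2%. Members passed the filter on low counts through their resistant libraries, and had a median of 147.5 reads over the 4 parental libraries together. With the 4 parental libraries fitted alone, 133 members passed the filter, of which 8 were called higher and 27 lower (6.02% and 20.3%, beside 31.2% and 29.8% of the 16064 genes of that fit). The part of low reads in these shares was not tested. The count of 11 dropped to 7 without parental untreated replicate 1, without parental untreated replicate 2 and without parental indisulam replicate 1. Past 1 log2 unit, ZNF350, PTGS1 and RNF43 rose (1.95% of the members, 0.858% of all genes and 0.423% of the tested genes of the rule). CLIC5, BLACAT1, ARRB1 and GDPD5 fell (2.60% of the members, 5.47% of all genes and 2.44% of the tested genes of the rule). Of these 7, the calls that held without any 1 library were those of BLACAT1, at -1.59 ± 0.37 (adjusted p = 0.000853), and ARRB1, an arrestin that desensitizes G protein-coupled receptors, at -1.56 ± 0.36 (adjusted p = 0.000607). ZNF350, a zinc finger repressor that binds BRCA1, had a log2 fold change of 3.14 ± 1.00 from 9 parental reads in all, and 2.31 without parental untreated replicate 1 (adjusted p = 0.0863). PTGS1, cyclooxygenase 1, had 1.06 ± 0.42, and 0.73 and 0.69 without parental untreated replicate 1 and without parental indisulam replicate 2. RNF43, a ligase that removes Wnt receptors, had 1.03 ± 0.32, and 0.96 and 0.79 without parental untreated replicate 1 and without parental indisulam replicate 1. CLIC5 had -1.96 ± 0.59, and -1.74 and -1.40 without parental untreated replicate 2 and without parental indisulam replicate 2. GDPD5, a phosphodiesterase, had -1.52 ± 0.59, and -1.07 and -0.80 without parental untreated replicate 1 and without parental indisulam replicate 2.

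Among members with more reads, NPAS2 rose in parental cells by 0.94 ± 0.20 log2 units (adjusted p = 0.000306), INHBA by 0.55 ± 0.10 (adjusted p = 0.000101) and THBS1 by 0.21 ± 0.03 (adjusted p = 4.38e-06). All 3 fell in resistant cells, NPAS2 by 0.21 ± 0.05 log2 units. SPRED3, an inhibitor of Ras signalling, fell in parental cells by 0.98 ± 0.13, ZNF469 by 0.99 ± 0.23, DDX60L by 0.58 ± 0.05 and EEF1A2 by 0.24 ± 0.06 log2 units. EEF1A2 rose in resistant cells, by 0.37 ± 0.03. Counted over both lines, 4 members were called higher in both, 11 lower in both, 7 higher in resistant and lower in parental cells, and 4 lower in resistant and higher in parental cells (NPAS2, INHBA, THBS1 and ADAMTS12). These are 2.60, 7.14, 4.55 and 2.60% of the members, beside 11.9, 10.5, 3.43 and 7.78% of all genes tested, with the same limit from parental reads. ADAMTS12 had only 0.11 ± 0.04 in parental cells, a call lost without each of the 8 libraries in turn (0.05 to 0.12, adjusted p = 0.0572 to 0.492). The 4 called higher in both lines were DAPP1, CALD1, NEDD9 and TRABD2A, named for this count after their values were seen.

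The difference of the responses (resistant minus parental, in log2 units) was called higher in 37 members and lower in 28, which is 24.0% and 18.2% of the members. Over all genes the shares were 22.7% and 27.5%, and over the tested genes to which the rule applied 21.8% and 35.2%. Past 1 log2 unit it was higher in 17 members (11%, against 7% of all genes) and lower in 11 (7.14%, against 0.774%). Of the tested genes to which the rule applied, 4.52% were higher and 0.697% lower past that limit. Members were chosen to be lower in parental than in resistant cells, and sizes are uncertain where parental reads were few. The part of low reads in these shares was not tested. The difference was lower in 7 of the 11 members on the interferon list, and higher in none. USP18 had -2.25 ± 0.15 (adjusted p = 5.44e-11) and XAF1 -2.83 ± 0.54 (adjusted p = 0.000133). EPSTI1 was called as well (-3.63 ± 0.98, adjusted p = 0.00468), but with 7 parental reads in all its parental response was hardly measured, so the size of that difference is uncertain. For CCL5 and GBP4 the differences were 0.26 ± 0.45 and 0.01, and neither was called. GBP4 had means of 0.127 and 0.0702 CPM in parental untreated and parental indisulam libraries. No SE is given for it, since an SE derived from F is unreliable for a change near 0. It was higher in KRT17 at 2.69 ± 0.23 (adjusted p = 2.70e-09), CLIC5 at 2.37 ± 0.59 (adjusted p = 0.00188) and CD24 at 1.33 ± 0.17 (adjusted p = 7.30e-07).

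For 11 named members the call in resistant cells was lost without some library, and they are given as values. COL16A1 had a log2 fold change of 0.35 ± 0.14, with adjusted p of 0.0535 to 0.379 without parental untreated replicate 1, without either resistant untreated library and without resistant indisulam replicate 2. LRRC8E had 0.24 ± 0.09 (0.0979 to 0.265 without resistant untreated replicate 2 and without either resistant indisulam library). NOG had 0.17 ± 0.07 (0.0576 to 0.263 without either parental untreated library, without resistant untreated replicate 1 and without either resistant indisulam library). PKIG, an inhibitor of protein kinase A, had 0.37 ± 0.13 (0.124 and 0.198 without replicate 2 of either resistant group). S100A9 had 0.14 ± 0.04 (0.0955 without resistant indisulam replicate 2), and SPOCK1 had 0.29 ± 0.10 (0.0975 and 0.165 without resistant untreated replicate 1 and without resistant indisulam replicate 2). TGFB2 had 0.30 ± 0.10 (0.0598 to 0.174 without resistant untreated replicate 1 and without either resistant indisulam library), and TNFSF12 had 0.42 ± 0.15 (0.0736 to 0.106 without resistant untreated replicate 2 and without either resistant indisulam library). ZNF358 had 0.34 ± 0.13 (0.254 and 0.332 without replicate 1 of either resistant group), while ZNF362 had -0.17 ± 0.06 (0.190 and 0.192) and ZNF469 had -0.31 ± 0.11 (0.0916 and 0.225), each without replicate 2 of either resistant group.

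To show the rest of each pathway, the genes of each list that are no members were counted by their call between the lines. This is the contrast that chose the members, so the counts are a description and nothing is read from them. Over all genes, 30.3% were higher and 29.9% lower in resistant cells off the drug, and 34.6% and 34.9% on it, with medians of -0.02 and 0.00 log2 units. Of 67 non-member genes on the interferon list, 65 were higher and 1 lower off the drug (median 2.60), and 59 and 3 on it (median 1.66). That list includes the OAS, IFI, PARP and SAMD9 genes the rule left out, 7 of which met both thresholds, and the lists were chosen with earlier results of these data known. Of 20 non-member epithelial-mesenchymal transition genes, 14 were higher and 3 lower off the drug (median 0.54), and 13 and 3 on it (median 0.44). For 47 matrix genes the counts were 20 and 7 off the drug (median 0.11), and 32 and 7 on it (median 0.82). For 85 proteases and inhibitors they were 50 and 11, and 55 and 9 (medians 0.45 and 0.47), and for 71 cytokines, chemokines and receptors 46 and 12, and 53 and 8 (medians 0.58 and 0.98).

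The other lists follow. Of 95 growth factors and receptor kinases, 41 were higher and 24 lower off the drug, and 54 and 24 on it (medians 0.09 and 0.35). Of 128 adhesion and axon guidance genes the counts were 75 and 24, and 82 and 19 (medians 0.40 and 0.54), and of 357 channels and transporters 146 and 97, and 172 and 112 (medians 0.07 and 0.15). Of 17 basal-like markers, 12 were higher and 2 lower off the drug, and 13 and 1 on it (medians 0.63 and 0.86). Of the 3 classical markers tested, 1 was higher and 1 lower off the drug, and 3 and 0 on it (medians -1.58 and 1.57). Of 63 drug-metabolizing enzymes, 32 were higher and 16 lower off the drug, and 32 and 18 on it (medians 0.17 and 0.26). Of 195 developmental transcription factors the counts were 79 and 52, and 98 and 49 (medians 0.05 and 0.22), and of 87 G protein-coupled receptors 32 and 26, and 37 and 26 (medians 0.04 and 0.17). Of 481 C2H2 zinc finger genes, 119 were higher and 176 lower off the drug, and 129 and 203 on it (medians -0.05 and -0.07).

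Members were counted by chromosome beside the tested genes to which the rule applied, and their spread was not tested. Chromosome 1 held 26 members (2.02% of its tested genes) and chromosome 19 held 17 (1.79%). Chromosome 17 held 15 (2.00%) and chromosome 11 held 13 (1.81%), beside 1.28% over all 22 autosomes. Per tested gene, chromosome 22 held the most, with 9 of 292 (3.08%), and chromosome 20 had 7 of 332 (2.11%). Chromosome 16 had 1 of 592 (ZNF469) and chromosome 21 none of 102. Exon length was like that of other genes, with a median of 5785 bases against 5396, and the median number of exons was 9 in both. NOG was the only member of a single exon, against 262 of the 12055 genes.

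**Figure D5:**
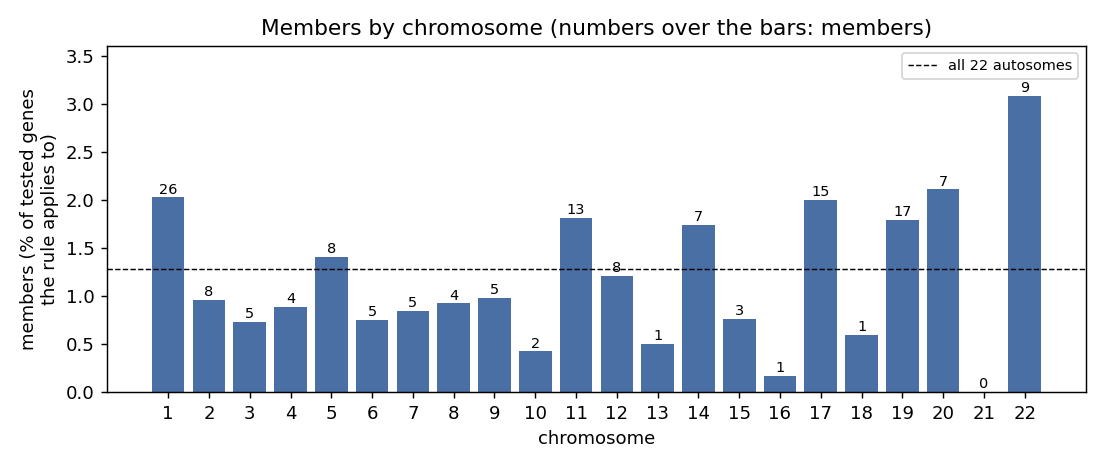
Members as a percentage of the tested genes to which the rule applies, by chromosome; numbers over the bars count the members and the dashed line is the share over all 22 autosomes. Chromosome 22 is highest at 3.08% and chromosome 21 holds none.

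Neighbouring members formed 20 runs in which each lay within 1 Mb of the next (52 members), 9 of them of 3 or more (30 members). In the runs of 3 or more, DLG4, MYH10, C3 and PKIG share their place with a gene of more reads, so their values are uncertain. How often other genes of the rule would form such runs was not tested. The longest, with 5 members, was XAF1, DLG4, NLGN2, TNFSF12 and MYH10 at chr17:6755447-8631376 (GRCh38), where the 59 tested genes between them that are no members had a median difference between the lines of 0.03 log2 units off the drug and 0.32 on it. The next, COL16A1, the kinase gene LCK, MARCKSL1 and ZNF362, lay at chr1:31652263-33300719, with medians of 0.11 and 0.14 over 28 other genes. LCK, a Src-family kinase of T cells, stood at 0.0746 to 0.123 CPM in parental libraries and reached 1.88 to 3.13 CPM.

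Runs of 3 members were seen for ARRB1, GDPD5 and DGAT2, the last a triglyceride synthase, at chr11:75260122-75801535 (medians of 0.43 off and 0.26 on the drug over 3 others), and for TGFBI, SPOCK1 and KLHL3, a ubiquitin ligase adaptor, at chr5:136028988-137736089 (0.16 and -0.06 in 1 other). INAVA, PHLDA3 and CSRP1 lay at chr1:200891048-201509456 (0.09 off the drug and 0.91 on it over 3 others), and KCNK6, SPRED3 and ECH1 at chr19:38319845-38831841 (0.56 and 0.78 over 8 others). EBI3, the glycoprotein gene LRG1 and SEMA6B lay at chr19:4229523-4581776 (-0.48 and -0.56 over 7 others), C3, ZNF358 and LRRC8E at chr19:6677704-7902021 (-0.58 and -0.42 over 16 others), and PKIG, WFDC2 and MMP9 at chr20:44531785-46016561 (0.23 and 0.19 over 24 others). CSRP1, a LIM protein of the cytoskeleton, was the most abundant of the chromosome 1 trio at 41.8 to 57.9 CPM in resistant libraries from 2.90 to 3.47 CPM. ARRB1 reached 7.07 and 7.02 CPM off the drug and 5.31 and 5.34 CPM on it from 0.0648 to 0.259 CPM, and GDPD5 3.75 to 6.31 CPM from 0.0124 to 0.148 CPM.

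For 19 members another annotated gene at the same place had more reads in resistant libraries, so that the split of reads made upstream, whose strand setting is not given in the sources used here, could have moved the value. Among the named members these were ERVMER34-1 (DANCR took 64.8% of the reads of the pair in resistant libraries), MYH10 (NDEL1, 79.4%), PKIG (ADA, 81.3%), C1S (LPCAT3, 92.3%), DLG4 (ACADVL, 99.2%), LOXL2 and C3. In parental libraries the partner's share was higher in each, for example 99.6% for DANCR. The rule favours this, since it sets each member lower in parental libraries. The part of the overlap in these values was not tested.

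The 79 members not named by the rule had ratios of 4.17 to 31.9, with a median of 7.57, and lowest resistant levels of 1.04 to 66.0 CPM. In resistant cells 27 of them rose with the drug, 28 fell and 24 were not called, with log2 fold changes of -1.51 to 1.06. In parental cells 4 rose, 16 fell and 59 were not called. The difference of the responses was called higher in 16 and lower in 10. Over all genes tested, the shares called higher and lower were 24.9% and 25.8% in resistant cells and 31.6% and 26.6% in parental cells. For the difference they were 22.7% and 27.5%.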

How the data were processed

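RNA sequencing libraries of Panc10.05 cells (8 libraries, 4 groups of 2) were analysed. The authors deposited 1 table of raw counts per library. Polyadenylated RNA had been made into stranded libraries and reads trimmed with SeqPurge, and the submitters' processing notes name HISAT2 2.2.1, Picard, HTSeq and GRCh38. The annotation and strand setting of the counting are not given in the sources used here, so the reads of overlapping genes and paralogues may have been split or lost upstream. CPM was computed as a count divided by all gene reads of the library, without the lines that name no gene (unmapped, duplicate, ambiguous and other reads), which held 37.9 to 44.9% of the reads of a file, 3.91 to 4.58% as ambiguous. Symbols and positions came from GENCODE 44.

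edgeR 4.0.16 in R 4.3.3 was used (filterByExpr, TMM scaling, robust quasi-likelihood fit of 4 group means to all 8 libraries), with Benjamini-Hochberg adjustment over 16661 genes. An SE is the size of the log2 fold change divided by the root of F, which is unreliable for changes near 0. Pooled ratios join libraries on and off the drug. Their exact 95% intervals cover counting error only and not the choice of the members from the same reads. An exact permutation test of 2 libraries against 2 cannot go below p = 0.333. Scripts were tested on simulated data. Groups share replicate numbers in the titles.

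Members and lists were chosen with earlier results of these data known. Named were the 12 members with the highest ratio, the 10 with the highest CPM per kb, the largest drug responses, up to 4 members of each list, members in runs of 3 or more and those at the thresholds. The lists were interferon-stimulated, basal-like, classical, epithelial-mesenchymal transition, matrix, protease, cytokine, growth factor, adhesion, channel and transporter, drug-metabolizing, developmental transcription factor, G protein-coupled receptor and C2H2 zinc finger genes. Alternatives were DESeq2 1.42.0 and its size factors, library totals alone, other filters, the replicate block, only the libraries of a line, glmTreat against 0.5 log2 units, adjusted p under 0.01, other thresholds of the rule and each library left out.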

Additional observations from a re-analysis of the deposited data

Results flagged for a closer look

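Among the named members, 39 had a drug response that differed between the lines by the test of the difference itself (edgeR's quasi-likelihood test, adjusted p under 0.05), among 65 members called in all. Values are the response in resistant cells minus that in parental cells, in log2 units, and their sizes are uncertain for members with few parental reads. Groups of 2 libraries are too small for a search for outlying libraries.

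The response was lower in resistant cells, with calls that held without any 1 library, for EPSTI1 (-3.63, from 7 parental reads in all), XAF1 (-2.83), USP18 (-2.25), LAMP3 (-1.88) and DDX60L (-0.47) of the interferon list. It was also lower for INHBA (-1.09), TGFBI (-1.05), THBS1 (-0.85), PMEPA1 (-0.84), ADAMTS12 (-0.56), NPAS2 (-1.15), C3 (-0.73), C15orf48 (-0.71) and FKBP10 (-0.44), a prolyl isomerase of collagen folding.

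The response was higher in resistant cells, again without dependence of the call on 1 library, for KRT17 (2.69), CLIC5 (2.37), BLACAT1 (1.44), CD24 (1.33), NLGN2 (1.28), LOXL2 (1.15), SPRED3 (1.07), EEF1A2 (0.61), INAVA (0.60) and CSRP1 (0.43).

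For 15 further members the call was lost without some library. Without parental untreated replicate 1 and without parental indisulam replicate 2, each in turn, it was lost for ACKR2 (1.71; 1.35 to 1.70 without them), C1S (-1.67; -1.28 to -1.19) and KCNK6 (0.66; 0.47 to 0.57). Without parental untreated replicate 1 and without parental indisulam replicate 1 it was lost for CCBE1 (2.25, then 1.19 to 1.73) and ARRB1 (1.11, then 0.93 to 0.98). Without parental untreated replicate 1 or either parental indisulam library it was lost for ZNF350 (-2.75, then -2.76 to -1.92). Leaving out parental untreated replicate 1 ended it for COL16A1 (1.19, then 0.99), and leaving out parental indisulam replicate 2 for DLG4 (1.26, then 0.63). For ZNF469 (0.68) it was lost without parental untreated replicate 2, parental indisulam replicate 2 or resistant indisulam replicate 1 (0.34 to 0.63). For SPOCK1 (0.88) it was lost without parental untreated replicate 2, either parental indisulam library or resistant indisulam replicate 2 (0.77 to 0.94). For DGAT2 (-0.46) it was lost without parental untreated replicate 2, parental indisulam replicate 1, resistant untreated replicate 1 or either resistant indisulam library (-0.45 to -0.24). For EBI3 (0.96) it was lost without parental untreated replicate 1, parental indisulam replicate 2, resistant untreated replicate 1 or either resistant indisulam library (0.47 to 1.01). For PHLDA3 (1.59), a target of p53, it was lost without either parental untreated library, parental indisulam replicate 2, resistant untreated replicate 2 or resistant indisulam replicate 1 (0.83 to 1.78). For P2RY6 (0.80) it was lost without any of the 4 parental libraries or replicate 2 of either resistant group (0.68 to 0.91). For RNF43 (-0.85) it was lost without either parental untreated library, parental indisulam replicate 1, resistant untreated replicate 2 or either resistant indisulam library (-0.92 to -0.61).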

How the results depend on the processing

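No result reversed under any of the alternatives run. Counts of members in this section have no share over all genes beside them and show only the change from the main fit. With glmTreat against 0.5 log2 units, 14 members were called higher and 18 lower with the drug in resistant cells, 0 and 5 in parental cells, and 8 and 10 in the difference, and 6 of the interferon-list members were called lower. Where glmTreat called 0 members higher in parental cells, 4 had an unadjusted p under 0.05, and the DESeq2 Wald test called 8. The 11 members higher in parental cells were 7 with library totals alone, 7 with no filter on low counts and 5 at adjusted p under 0.01, and 22 members were higher in the difference at adjusted p under 0.01. The set held 84 members at 8-fold, 218 at 3-fold, 193 at 0.5 CPM and 153 with TMM-scaled library sizes, of which 84, 154, 154 and 153 were among the 154.

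Without each library in turn, 41 to 56 members were higher and 51 to 55 lower in resistant cells, 7 to 10 and 23 to 30 in parental cells, and 27 to 39 and 23 to 28 in the difference. The 11 interferon-list members stayed called lower each time. The set then held 156 to 161 members, always with all 154, since fewer libraries can only add members. With the replicate block, 51 members were higher and 55 lower in resistant cells, 11 and 29 in parental cells, and 36 and 28 in the difference. Deviations of same-numbered libraries correlated by -0.058 to 0.027, so no shared effect of the replicate number on expression was seen. Whether same-numbered libraries were handled together cannot be told from these values. For list genes that are no members, the block gave 702 higher and 440 lower off the drug and 801 and 473 on it, against 711, 446, 808 and 476 without it. Of 113 named members' calls, 37 held under each alternative that gave a value, and some gave none for members that failed their filter. Over all members, 37 of 54 rises and 51 of 55 falls in resistant cells, 4 of 11 and 14 of 29 in parental cells, and 18 of 37 higher and 21 of 28 lower differences kept their call without any 1 library.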
